A study of Mus musculus with 8 samples.

Results

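The response of starved NIH3T3 cells to 30 min of serum was measured by comparing 3 serum arrays with 2 no-serum arrays, which together are 5 of the 8 arrays of the study. NIH3T3 is an immortalised line of mouse embryonic fibroblasts. All cells had been grown on 15 cm plates in 10% newborn bovine serum and then held for 24 h in 0.5% serum. The serum group received the vehicle DMSO at 0.1%, was given serum 60 min later and was lysed after 30 min of serum. The no-serum group was labelled as starved control cells, for which the treatment description names the same vehicle, and received no serum. Each array hybridised total RNA labelled with a single dye to long oligonucleotide probes for mRNAs and for long intergenic non-coding RNAs (lincRNAs). The remaining 3 arrays, from cells given cordycepin before serum, entered the estimate of the spread between arrays and the choice of each gene's brightest probe. The design text speaks of independent triplicates, yet the no-serum group holds 2 arrays here, and nothing further describes the cultures, so that p-values measure the spread between these arrays.

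Serum carries growth factors and lipids that act through the Ras, MEK and ERK kinases and through the actin cytoskeleton. ERK phosphorylates ternary complex factors, and released MRTF binds the serum response factor SRF at a promoter element called the CArG box. The immediate early genes that answer first need no new protein synthesis. They encode transcription factors such as Fos and Egr1, feedback inhibitors such as the dual-specificity phosphatases, and proteins that destabilise the same short-lived mRNAs.

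All 13 fibroblast markers examined, among them Col1a1 and Vim, were well above background on all 5 arrays, and their summed levels overlapped between the groups (2910 to 3260 times the array's 75th percentile signal with serum, 2730 to 3030 without). Adipoq, Plin1, Cdh1, Krt5, Cdh5, Tie1, Hbb-b1, Myod1 and Myog, which define fat, epithelial, endothelial, blood and muscle cells, were not well above background on any of the 5. Other members of those lists were detected on all 5 arrays, namely 1 of 4 adipocyte, 3 of 7 haematopoietic, 3 of 7 epithelial, 3 of 5 endothelial, 0 of 5 muscle and 3 of 5 neuronal markers. The share of probes well above background was 51.1 to 55.3% on the serum arrays and 55.2 to 57.1% on the no-serum arrays. Correlations between arrays were 0.993 to 0.996 within the serum group, 0.995 within the no-serum group and 0.986 to 0.993 between them.

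Among RefSeq messenger RNAs serum raised a small set and lowered hardly any. Calls needed an adjusted p below 0.05 in limma together with a change of 1 or more on the log2 scale, and were made over 29879 probes well above background on all arrays of either group. By this rule 260 probes were called higher (0.87% of those tested) and 272 lower (0.91%). Of the 17594 probes for RefSeq mRNAs, 138 rose (0.784%) and 12 fell (0.0682%). Of the 6456 lincRNA probes, 74 rose (1.15%) and 165 fell (2.56%), and of 5230 probes for other transcripts 41 rose (0.784%) and 86 fell (1.64%). Of the lincRNA calls, 59 rises and 82 drops were measured on all 5 arrays. In every called probe the 3 serum arrays lay wholly on 1 side of the 2 no-serum arrays. That separation by itself makes the direction the same in both rows of the slide, so the rows add no separate evidence. The median log2 fold change over all probes was -0.017. Of the 138 mRNA rises, 126 were measured on all 5 arrays, and these had a median of 1.54 on the log2 scale, with 40 probes at 2 or more, 12 at 3 or more and 4 at 4 or more. With arrays centred on their spike-in probes, which moved the median of all probes to -0.36, 47 probes were called higher and 128 lower, so that rises made up 26.9% of the calls against 48.9%. With a normexp background correction they made up 74.2%. The spike-in level minus the 75th percentile (log2) itself varied within groups. It was 1.84 and 2.99 on the no-serum arrays and 2.49, 3.29 and 2.51 on the serum arrays. The effect of that spread on the calls was not tested. The lincRNA calls became 37 rises and 34 drops with normexp, and 13 and 83 with spike-in centring. Leaving out no-serum replicate 1 gave 161 rises and 128 drops, and leaving out no-serum replicate 2 gave 139 and 137.

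**Figure D1:**
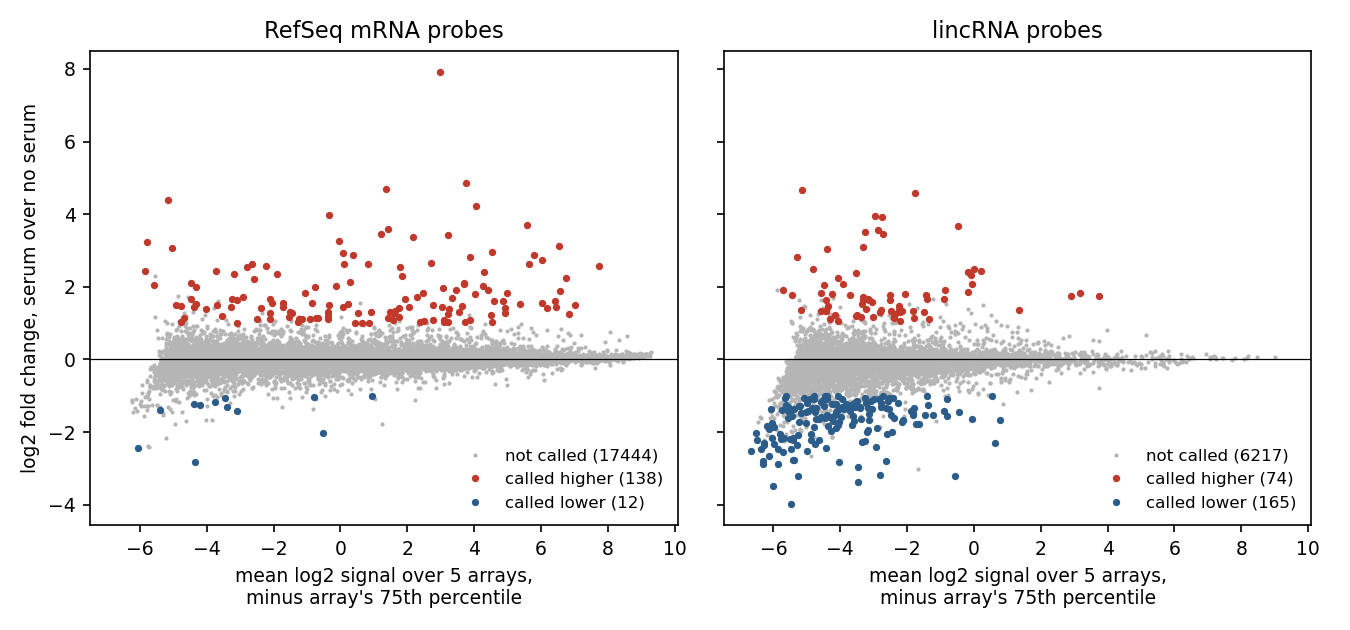
Log2 fold change of serum over no serum against mean log2 signal over the 5 arrays for each probe tested, for RefSeq mRNA probes on the left and lincRNA probes on the right. Red points were called higher and blue points lower; the 138 mRNA rises span dim and bright probes, while the 12 mRNA and 165 lincRNA drops sit mostly among dim probes.

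The largest changes were in AP-1 and ATF factors, which pair through leucine zippers to bind DNA. Signals below are log2 values minus each array's 75th percentile. Fosb (probe at chr7:19888168-19888227, mm9) read 6.03, 6.09 and 6.34 on the serum arrays and -1.54 and -1.97 on the no-serum arrays. The gap, a log2 fold change of 7.91 ± 0.19 (SE; 240-fold; limma adjusted p = 2.1e-06), was far wider than the spread of either group. Fos (chr12:86817900-86817959) read 5.73, 5.51 and 5.89 with serum and 1.32 and 0.39 without, a difference of 4.86 ± 0.28 (29-fold; limma adjusted p = 0.000143). The 2 no-serum arrays were further apart for Fos than the 3 serum arrays were. Atf3, a stress-induced repressor of the same family, read 2.93, 3.11 and 3.64 against -1.13 and -1.81, which came to 4.70 ± 0.27 (26-fold).

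Other genes with large rises encode proteins of quite different kinds. Arc, best known as a regulator of synaptic receptor traffic in neurons, went from 1.92 and 1.13 to 5.46, 6.11 and 5.69 (4.23 ± 0.26). Zfp36, whose product tristetraprolin binds AU-rich elements and speeds mRNA decay, went from -2.63 and -2.84 to 1.15, 1.38 and 1.18 (3.97 ± 0.16). Btg2, an antiproliferative protein that recruits the deadenylase complex, went from 1.43 and 0.87 to 4.64, 4.54 and 4.58 (3.43 ± 0.21). In these genes the serum arrays were all well above the no-serum arrays, and the lower no-serum value of Arc and Btg2 came from replicate 2. Arl4d, a small GTPase of the ARF family, had the smallest standard error of these genes, with readings of 2.77, 2.87 and 2.90 with serum and -0.83 and -0.67 without (3.59 ± 0.11; limma adjusted p = 1.19e-05). A second Arl4d probe gave 3.46 ± 0.14. Npas4, an activity-regulated transcription factor of neurons, read 3.49, 3.48 and 3.54 against 0.22 and 0.06 (3.36 ± 0.22). Nppb, the precursor of brain natriuretic peptide, read 1.56, 1.19 and 1.04 against -2.07 and -1.90 (3.25 ± 0.19). Ccn1 and Ptgs2, which act outside the cell or make signals that do, are described with their lists.

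**Figure D2:**
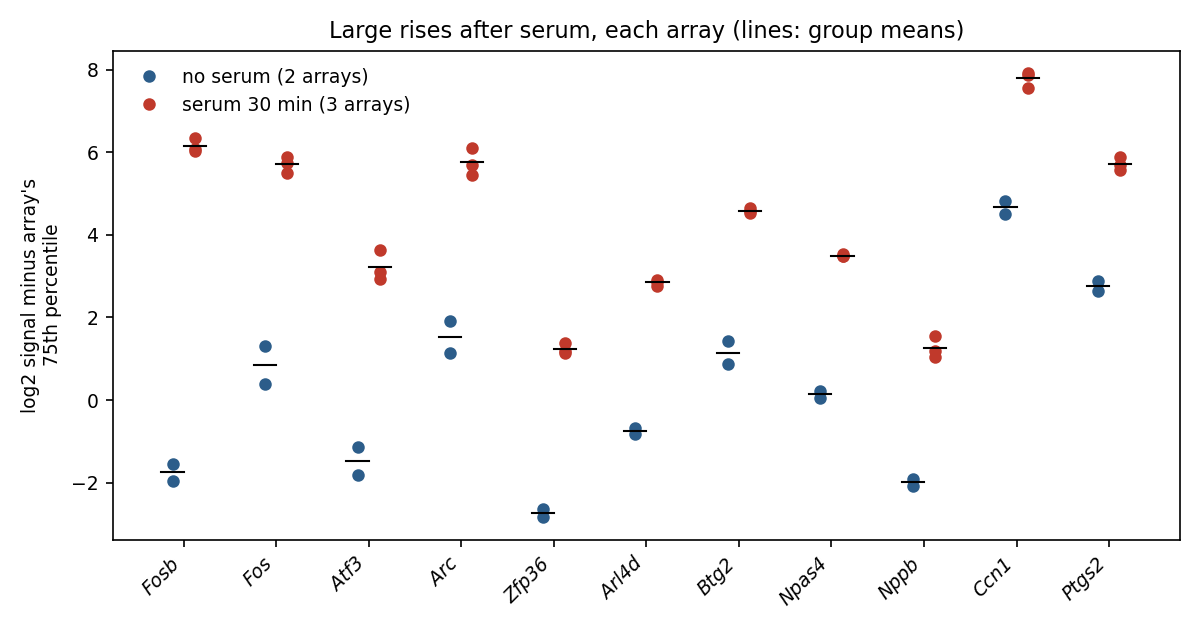
Log2 signal minus the array's 75th percentile on each array for 11 genes with large rises among called mRNA probes measured on all 5 arrays, with no-serum arrays in blue, serum arrays in red and group means as short lines. The groups are separate in each gene, and the Fosb means lie 7.91 apart.

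Gene lists were described with 1 probe per gene, the brightest by its mean over all 8 arrays. Over all 17201 genes tested, 151 were called higher (0.878%) and 90 lower (0.523%), with a median log2 fold change of -0.01. No list held a member called lower. Of the 12 AP-1 and ATF genes tested, 8 rose (66.7%), with a median over the list of 1.55. Beside Fosb, Fos and Atf3 these were Junb (2.64 ± 0.18), Maff (1.68 ± 0.18), Jun (1.6 ± 0.15), Fosl1 (1.50 ± 0.23) and Nfil3 (1.45 ± 0.22). Junb read 1.85, 2.04 and 1.76 with serum and -0.61 and -0.90 without, and Jun read 6.86, 7.15 and 7.20 against 5.41 and 5.52. Within the Jun family the values thus ran from 2.64 for Junb through Jun to 0.42 ± 0.12 for Jund, which did not pass the test (adjusted p = 0.165). Mafk stood at 0.75 and Fosl2 at 0.78, both under the fold limit, and Mafg at 0.16.

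Among the Egr, Nr4a and Klf zinc-finger factors and orphan receptors, 7 of 15 rose (46.7%) and the median was 1.08, which is the same with Egr4 at its bound. All 4 Egr genes were among them. Egr2 went from 4.17 and 3.98 to 6.74, 6.78 and 6.59 (2.63 ± 0.16), Egr3 from -3.91 and -4.51 to -1.85, -1.21 and -1.74 (2.61 ± 0.28), and Egr1 from 6.23 and 5.96 to 7.65, 7.66 and 7.51 (1.51 ± 0.14). Egr4 was not well above background on either no-serum array. Its serum readings were -3.61, -3.44 and -3.14, at least 4.74-fold above the lowest signal that counted as above background on the no-serum arrays (limma adjusted p = 0.0129). That call was lost when either no-serum array was left out. Nab1 and Nab2, corepressors of the Egr proteins, stood at 0.01 and 0.77 and were not called. Nr4a1, a nuclear receptor without a known ligand, went from 6.68 and 5.73 to 8.72, 8.98 and 8.62 (2.57 ± 0.26), while Nr4a2 stood at 0.69 ± 0.38. Klf6 (1.41 ± 0.11) and Klf9 (1.04 ± 0.14) rose, and Klf2 (1.22; adjusted p = 0.0506) and Klf10 (1.08; adjusted p = 0.0841) missed the test.

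Of 35 other immediate early genes, 14 rose (40%), with a median of 0.83. The largest after Arc were Rgs16, an inhibitor of heterotrimeric G proteins (2.89 ± 0.22), Gadd45g, a growth arrest and stress protein (2.72 ± 0.18), and Ier2 (2.66 ± 0.15). Rgs16 read 1.44, 1.95 and 1.20 with serum and -1.40 and -1.31 without. Csrnp1, Errfi1, Ier3, Trib1, Ier5, Plk3, Phlda1, Srf, Arid5a and Gadd45b followed, from 2.55 down to 1.09. Errfi1, which blocks the EGF receptor, stood at 2.25 ± 0.21, and Srf itself at 1.42 ± 0.13. Myc, long known as a growth-factor-induced gene, read 3.56, 3.12 and 3.18 with serum and 2.42 and 2.48 without. These groups did not overlap, but the difference of 0.84 ± 0.29 did not pass the test (adjusted p = 0.307). Members of the same families stood apart here, since Gadd45g and Gadd45b rose while Gadd45a was at -0.82 (adjusted p = 0.261), and Rgs16 rose while Rgs2 was at -0.45.

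The DNA just before the start of the raised genes was read from RefSeq promoter sequences of the GRCm38.p6 build, in windows of 250 bases before each start. Of the 128 genes with an mRNA probe called higher, 95 had at least 1 such entry, as did 10518 of the 13081 genes tested. A CArG box, the SRF element made of CC, 6 bases that are A or T and GG, was found in 7 of the 95 (7.37%) and in 1.55% of all genes with an entry. The cAMP response element TGACGTCA was found in 6 (6.32%) against 2.9%, and the EGR motif GCGNGGGCG in 16 (16.8%) against 9.84%. The AP-1 motif TGANTCA was in 8.42% against 5.71%, the TATA motif TATAAA in 9.47% against 5.68% and the ETS motif CCGGAAGT in 2.11% against 6.35%. Both strands were searched, except that TATAAA was read on the gene's strand only, and these shares are descriptions without a test. A window without a match says only that these letters are not in it, and Fos was such a case for the CArG box. The stretches around the CArG boxes of Srf, Dusp5, Egr2 (from 2 of its start sites), Zfp36 and Filip1l are shown because these genes stand in the lists described here, with the boxes in capitals.
Srf, chr17:46556190-46556269, minus strand: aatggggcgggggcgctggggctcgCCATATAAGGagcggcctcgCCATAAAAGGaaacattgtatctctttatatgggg
Dusp5, chr19:53529038-53529107, plus strand: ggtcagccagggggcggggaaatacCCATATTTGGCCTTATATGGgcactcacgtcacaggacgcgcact
Egr2, chr10:67537772-67537831, plus strand: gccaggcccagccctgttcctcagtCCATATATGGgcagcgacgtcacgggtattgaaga
Egr2, chr10:67537469-67537528, plus strand: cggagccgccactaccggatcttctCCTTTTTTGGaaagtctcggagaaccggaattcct
Zfp36, chr7:28379252-28379311, minus strand: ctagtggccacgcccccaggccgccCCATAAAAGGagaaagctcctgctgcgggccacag
Filip1l, chr16:57549155-57549214, plus strand: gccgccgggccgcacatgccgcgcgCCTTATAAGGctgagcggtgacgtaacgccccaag
Srf and Dusp5 each carried a pair of boxes, and those of Dusp5 lay back to back. None of the 6 genes with the TGACGTCA element had a CArG box in the window. The stretches around the element are shown for Arl4d, Btg2 and Dusp1, with the element in capitals.
Arl4d, chr11:101665490-101665540, plus strand: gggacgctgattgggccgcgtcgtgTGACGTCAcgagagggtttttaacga
Btg2, chr1:134079289-134079346, minus strand: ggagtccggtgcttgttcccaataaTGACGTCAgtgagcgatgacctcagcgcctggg
Dusp1, chr17:26508583-26508640, minus strand: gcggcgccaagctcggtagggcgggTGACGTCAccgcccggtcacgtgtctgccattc
In Arl4d the element began 26 bases before the start, in Btg2 166 bases and in Dusp1 143 bases before it.

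The genes with an mRNA probe called higher were short beside all genes tested. Their median length from first to last base was 8.9 kb (128 genes), against 21.8 kb over the 13081 genes tested, and 51.6% of them spanned less than 10 kb against 27.2%. Shortness was not particular to rises. The 12 genes with an mRNA probe called lower had a median of 11.3 kb, and 41.7% of them spanned less than 10 kb.

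Of 11 dual-specificity phosphatases that switch these kinases off, 4 rose (36.4%). Dusp5, a nuclear phosphatase of ERK, went from -1.66 and -1.71 to 1.04, 1.49 and 1.25 (2.94 ± 0.21). Dusp1, which also acts on p38 and JNK, went from 2.86 and 2.85 to 5.55, 4.91 and 5.33 (2.40 ± 0.22). Dusp2 (2.34 ± 0.22) and the cytoplasmic Dusp6 (1.61 ± 0.25) completed the set, and the other 7 lay between -0.34 for Dusp7 and 0.44 for Dusp8. Of the 16 Sprouty, Spred and ETS genes tested 0 were called, with a range of -0.11 to 0.36, and the difference between these lists was not tested. Spry2, a Sprouty inhibitor of receptor signalling, stood at 0.29 ± 0.13 and Spry4 at 0.21 ± 0.23. The ETS factor genes Etv1, Etv4 and Etv5 varied widely within both groups. Etv4 read 2.38, 1.86 and 0.72 with serum and 1.08 and 2.38 without, and serum replicate 3 and no-serum replicate 1 were the low arrays of their groups in all 3 genes.

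Zfp36, Btg2 and Zc3h12a (1.45 ± 0.13), the last encoding an RNase that cleaves stem-loops in inflammatory mRNAs, were the 3 of 19 mRNA decay regulators that rose. Their relatives did not pass the test, with Zfp36l1 at 0.31, Zfp36l2 at -0.16, Btg1 at 0.12 and Btg3 at 0.16. The deadenylase subunits Cnot1, Cnot7, Cnot8, Pan2, Pan3 and Parn lay between -0.04 and 0.07.

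Of 19 secreted factors and inflammatory mediators, 6 rose (31.6%). Ptgs2, the inducible cyclooxygenase that makes prostaglandins, read 5.89, 5.69 and 5.58 with serum and 2.88 and 2.64 without (2.96 ± 0.19). The chemokine Cxcl1 stood at 2.64 ± 0.29, the EGF receptor ligands Ereg at 2.30 ± 0.24 and Hbegf at 1.47 ± 0.28, the cytokine Lif at 1.37 ± 0.20 and endothelin (Edn1) at 1.31 ± 0.25. Hbegf and Edn1 lost their calls when serum replicate 1 or 2, or either no-serum array, was left out, and without no-serum replicate 2 the list held 3 called members. Ccl2, Ccl7, Il6, Vegfa and Fgf2 stood at 0.06 to 0.34 and were not called.

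Among adhesion, matrix and YAP or TAZ output genes 8 of 18 rose (44.4%). Ccn1, a matrix protein that binds integrins, went from 4.51 and 4.82 to 7.88, 7.92 and 7.56 (3.12 ± 0.16). Its relative Ccn2 had wider groups, with 3.47 and 4.64 before and 7.22, 7.16 and 6.42 after (2.88 ± 0.49). The Ccn2 call was lost without serum replicate 1, serum replicate 2 or no-serum replicate 1. F3 (tissue factor, the start of clotting; 1.88 ± 0.14), Thbs1, Plaur, Ankrd1 and Plau followed, the last 4 between 1.45 and 1.01. Plau encodes a plasminogen activator and Plaur its receptor, while the other activator gene, Plat, stood at -0.05. Left-out arrays brought this list down to 3 members called without no-serum replicate 1, 4 without no-serum replicate 2 and 5 without serum replicate 1.

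Id3 and Id1, inhibitors of helix-loop-helix factors and targets of BMP signalling, were the 2 of 12 TGF-beta, BMP and Id genes that rose, by 2.02 ± 0.19 and 1.97 ± 0.25. Id2 and Id4 stood at 0.88 and 0.76 and were not called, and Id1 lost its call without no-serum replicate 1. In the list of actin cytoskeleton targets of MRTF and SRF 2 of 21 rose, namely Actg2 (1.51 ± 0.24) and Filip1l (1.31 ± 0.21). Both calls were lost when either no-serum array was left out, and that of Filip1l also without serum replicate 1. Smooth-muscle genes of this list stood higher than the median of all genes without passing, with Tagln at 0.83 and Acta2 at 0.76, while Vcl, Actb and Cald1 lay between -0.02 and 0.15. The brightest Tpm1 probe read 0.59 (adjusted p = 0.0805) although 2 dimmer Tpm1 probes were called. Nfkbiz (1.57 ± 0.24), an atypical nuclear IkB protein, was the single call among 16 NF-kB genes, and the call was lost without no-serum replicate 2. Per1 (1.28 ± 0.16), read at 4.32 and 3.97 before and 5.28, 5.44 and 5.54 after, was the single call among 15 clock genes, while Per2 stood at 0.36, and it too was lost without no-serum replicate 2.

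No member was called in the lists of FoxO and growth arrest genes (20 tested, median -0.10), G1 cyclins and S phase genes (19, -0.02), ribosome biogenesis genes (18, 0.06), cholesterol and lipid synthesis genes (15, 0.19) or integrated stress response genes (12, 0.11). Txnip, an inhibitor of glucose uptake, had the lowest value of these at -1.77 ± 0.46 (adjusted p = 0.123). Ccnd1 stood at -0.15 ± 0.15 and Pcna at 0.16 ± 0.12. The 12 reference genes had a median of 0.11, with Actb at 0.15, Gapdh at 0.01 and Rpl10a at 0.09, none of them called. The Gapdh probe is placed on chromosome 7 by the array design although RefSeq has the gene on chromosome 6, so that it may read a copy. With spike-in centring these 3 stood at -0.19, -0.34 and -0.26.

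**Figure D3:**
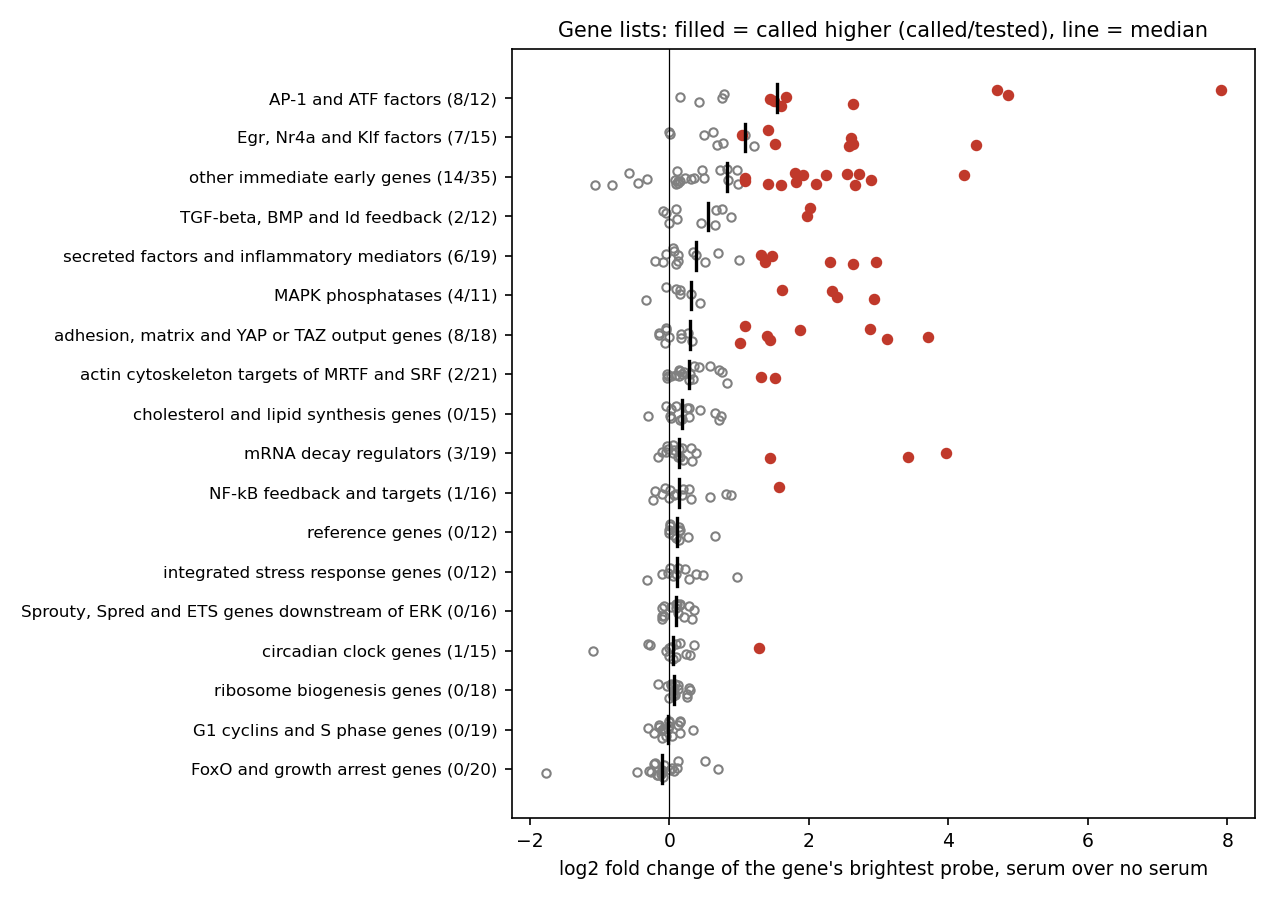
Log2 fold change of serum over no serum for the brightest probe of each tested member of 18 gene lists, ordered by the list median, which is drawn as a line. Filled points were called higher; they crowd into the immediate early lists and are absent from 7 lists such as the ribosome biogenesis and S phase genes.

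Some genes outside the lists, chosen after their values were seen, had rises of similar size. Noct, a circadian-regulated enzyme also called nocturnin, stood at 2.83 ± 0.33, the synaptic scaffold gene Homer1 at 2.00 ± 0.18 on the probe whose call was kept whichever array was left out, and the chaperone gene Dnajb1 at 1.56 ± 0.12. Itga5, an integrin chain, rose by 1.29 ± 0.19. A lower bound was the only measure for Kcnj14 (at least 2.35-fold), whose probe the array design places on chromosome 1 although RefSeq has the gene on chromosome 7. That call was lost without serum replicate 1 or 2 or either no-serum array. Dim probes of Gcnt2 (at least 3.60-fold) and Myoz3 (at least 2.22-fold) were called, whereas the brightest probes of these genes stood at 0.80 ± 0.15 and 0.25 ± 0.15. Tgfb1i1 and Mcl1 were likewise called on a dimmer probe (1.84 ± 0.13 and 1.08 ± 0.13) and not on the brightest (-0.03 and 0.73). Among the rest, 9 genes whose brightest probe was called higher had 10 further probes tested, of which all 10 pointed the same way and 8 were called.

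Only 12 RefSeq mRNA probes fell. Olfr978, an odorant receptor gene, had the largest drop among those measured on all 5 arrays, from 1.11 and 0.28 to -1.41, -1.31 and -1.24 (-2.02 ± 0.24; limma adjusted p = 0.00478). Dnajc28 went from -3.45 and -3.48 to -4.66, -4.92 and -4.55 (-1.25 ± 0.15), Pigc, an enzyme of GPI anchor synthesis, from -0.22 and -0.15 to -1.17, -1.19 and -1.26 (-1.02 ± 0.17), and 9930012K11Rik by -1.01 ± 0.19. Zfp606, Dcaf17, Wdcp and Zfp867 were called on a dim probe (-1.43, -1.32, -1.16 and -1.06) while their brightest probes stood at -0.23, -0.01, 0.05 and -0.03. Oas1a, an interferon-induced sensor of double-stranded RNA, was above background on the no-serum arrays alone and was lower by at least 1.79-fold with serum. That call was lost without serum replicate 1 or 2 or either no-serum array. The calls of Pigc, 9930012K11Rik and Wdcp were lost whichever of the 5 arrays was left out, those of Dcaf17 and Zfp867 with 4 of the 5. Tfap2a, Kcnrg and Dtd2, outside the naming rule, made up the 12. Of these 12 calls 4 (Olfr978, Dnajc28, Zfp606 and Tfap2a) were kept whichever array was left out, as were 66 of the 138 mRNA rises, and the number of mRNA drops was 22 without no-serum replicate 1 and 6 without no-serum replicate 2. The mRNA rises numbered 81 and 84 without these arrays. Among the rises not yet given with such a loss, those of Fosl1, Nfil3, Thbs1, Ankrd1 and Itga5 were lost when either no-serum array was left out. Klf9 was lost without serum replicate 2 or no-serum replicate 2. The Srf probe at 1.42 kept its call whichever array was left out, while a dimmer Srf probe (1.69 ± 0.25) lost it without either no-serum array. Plaur was also lost without serum replicate 1, and Plau without serum replicate 1 or 2, beside either no-serum array. Leaving out no-serum replicate 1 ended the calls of Arid5a, Dusp6, Ier5, Myoz3 and 1 Tpm1 probe, and leaving out no-serum replicate 2 those of Lif and Gadd45b.

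Some of the raised lincRNA probes lay beside a few raised genes. Of the 74 called higher, 20 (27%) were within 50 kb of a called-higher mRNA probe in mm9 coordinates, against 140 (2.18%) of the 6410 lincRNA probes with a position. These 20 of the 140 lay near Npas4, Egr3, Ccn1, Nr4a1 and Zfp281 alone. Near the other raised genes none rose, as with 0 of 16 probes near Mcl1, 0 of 14 near Cldn15 and 0 of 9 near Plk3. Near Npas4 11 of 12 lincRNA probes rose, and the 6 of these measured on all 5 arrays rose by 1.18 to 3.92 on the log2 scale. The probe at 1.18 lost its call without serum replicate 1 or 2 or either no-serum array. The 11 came from 4 annotated regions 7.04 to 17.1 kb upstream of the Npas4 probe, on the same strand. Near Egr3 3 of 3 lincRNA probes rose, on its strand and 4.58 to 4.81 kb downstream of its own probe, the 2 measured on all 5 arrays by 1.81 and 4.58. Near Ccn1 3 of 8 rose by 2.41 to 2.48 on the opposite strand, 4.63 to 4.75 kb upstream of its probe. Near Nr4a1 2 of 6 rose, both on its strand and 11.6 and 13.6 kb upstream of its probe. The farther of them rose by 2.38, while the nearer was not above background on either no-serum array and lost its call whichever array was left out. Near Zfp281 1 dim probe of 21 was called. Distances run from the gene's probe, not from its start, and RefSeq gives Npas4 a length of 19087 bases and Nr4a1 20894 bases (GRCm38.p6), so that these positions may lie within the annotated genes. Whether these probes read separate transcripts or extensions of the neighbouring gene was not tested, and the called probes of each gene share 1 locus.
The 60-base probes with the largest rises among lincRNA probes measured on all 5 arrays are given because they define what was detected at Egr3 and Npas4.
Egr3 side, chr14:70484011-70484070 (mm9), plus strand: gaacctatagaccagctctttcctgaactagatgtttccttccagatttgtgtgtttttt
Npas4 side, chr19:4994396-4994455 (mm9), minus strand: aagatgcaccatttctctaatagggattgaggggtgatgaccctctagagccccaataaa
Npas4 side, chr19:4991455-4991514 (mm9), minus strand: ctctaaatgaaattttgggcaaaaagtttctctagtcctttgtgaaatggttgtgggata
The Egr3-side probe read 0.44, -0.21 and -0.02 with serum and -4.26 and -4.76 without (4.58 ± 0.25; limma adjusted p = 0.000114). The Npas4-side probes went from -5.10 and -5.07 to -1.32, -1.12 and -1.07 (3.92 ± 0.13) and from -2.57 and -2.82 to 0.86, 1.07 and 1.03 (3.68 ± 0.14). In all 3 the groups were tight and far apart.

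**Figure D4:**
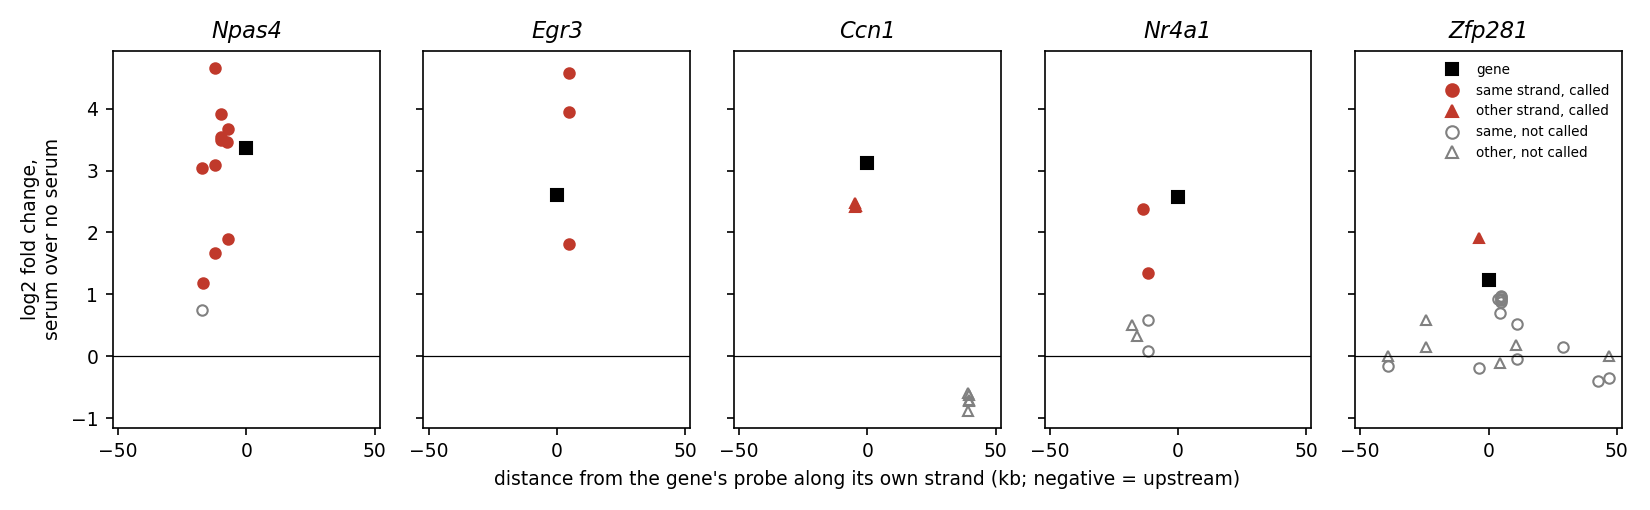
Log2 fold change of every tested lincRNA probe within 50 kb of the probes of Npas4, Egr3, Ccn1, Nr4a1 and Zfp281, against the distance from the gene's own probe along its strand in kb, with the gene as a black square. Red symbols were called higher (circles on the gene's strand, triangles on the other); 11 of 12 near Npas4 and 3 of 3 near Egr3 are red.

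The other 54 raised lincRNA probes had no called-higher mRNA probe within 50 kb. The region chr16:4867322-4874772 on the reverse strand had 5 of 7 probes called (median 1.67), and chr4:40840725-40860875 on the forward strand 5 of 5 (median 1.51). A region on chromosome 16 from 84702353 to 84710928 had 3 of 3 probes called on each strand, with medians of 2.04 and 1.36. Of these 16 calls, 1 in the first region, 2 in the second and 0 in the third were kept whichever array was left out. In all, the 74 probes lay in 39 annotated regions, some of which overlap, and 19 of these had at least 2 called probes. Without no-serum replicate 1 or 2 the 74 became 45 and 33.
Among other transcripts, cDNA E330037I15Rik went from -2.30 and -2.50 to 1.80, 1.53 and 2.05 (4.19 ± 0.19) and cDNA C130033p17rik from -2.18 and -2.32 to 1.48, 1.19 and 1.15 (3.52 ± 0.29). The second lies 45.9 kb upstream of the probe of Tnc, a matrix gene that also rose (1.11 ± 0.17), a call lost without serum replicate 2 or either no-serum array. A predicted variant of Nrn1, neuritin, stood at 2.53 ± 0.22.

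The drops were mostly in lincRNAs and in the class of other transcripts, read by dim probes. That class holds every probe outside the RefSeq mRNA, RefSeq non-coding and lincRNA classes. Some of its members, such as 4930432F04Rik and BC028556, are described as mRNAs, so that it is not a non-coding class. Of the 272, 259 were dimmer than the median probe, compared with 140 of the 260 rises. In dim probes 2.98% of lincRNAs and 0.158% of mRNAs fell, and in bright probes 0.532% and 0.0177%. Only 140 of the 272 drops, and 82 of the 165 lincRNA drops, were measured on all 5 arrays, and 64 drops were not above background on any serum array. The filter let in more probes through the no-serum group. Probes well above background on all its arrays numbered 29674, against 27697 on all serum arrays and 27492 on both. The shares of dim probes that fell thus include probes that passed only through the group where they are high. In 185 of the 272 no-serum replicate 1 read highest of the 5 arrays, and the median of replicate 1 minus replicate 2 was 0.16 on the log2 scale, against 0.05 in the rises. That array also had the highest share of probes above background (57.1%, against 55.2% for no-serum replicate 2 and 51.1 to 55.3% with serum), and its part in these drops was not tested. Without it there were 128 drops in all and 66 lincRNA drops, without no-serum replicate 2 there were 86, and 45 of the 165 were kept whichever array was left out.

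Of the 2865 annotated lincRNA regions tested, 96 held the 165 drops and 39 held a rise. At least 2 probes were called lower in 38 of the 96. With so few of the regions called, the finding of 0 regions with calls in both directions says little. Some of these annotated regions overlap, so that separate loci are fewer. The largest measured on all 5 arrays were in a reverse-strand region of chromosome X from 50400250 to 50410825. Its probe at 50406515 read 1.71 and 1.03 without serum and -2.03, -2.64 and -0.87 with it (-3.22 ± 0.55), and its neighbours read -3.17 ± 0.50 and -2.79 ± 0.50. Serum replicate 3 was the least lowered in each of these probes, and all 3 calls were lost when either no-serum array was left out. Of the 165, 0 lay within 50 kb of an mRNA probe called lower, as did 0.187% of all lincRNA probes. Of the 140 lincRNA probes within 50 kb of raised genes 5 fell, 2 near Klf9, 2 near Mcl1 and 1 near Ccnl1. Over all lincRNA probes 2.56% fell, so that this count is close to the general share. Most of these 5 were not measured on all 5 arrays. Named transcripts that fell included 4930432F04Rik (-2.42 ± 0.13), C530043K16Rik (-2.01 ± 0.18) and BC028556 (-1.92 ± 0.15). Among RefSeq non-coding RNAs 7 of 599 probes rose (1.17%) and 9 fell (1.5%). An example of the latter, chosen after its values were seen, was Gm4532, whose brighter probe fell by 1.74 ± 0.12 and whose dimmer probe was also called. Both lie within the positions of a lincRNA region of chromosome 7 from 134369091 to 134376468, where 4 of 4 lincRNA probes fell, so that they are not a separate locus.

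**Figure D5:**
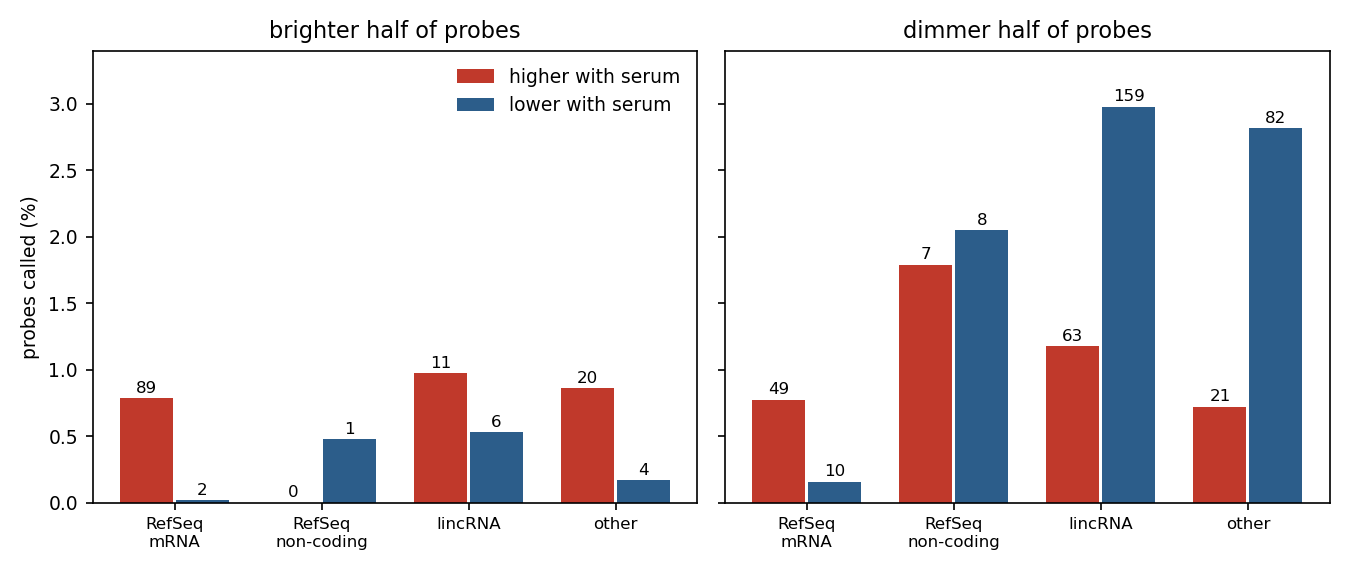
Share of probes called higher (red) or lower (blue) with serum, in percent, by class of transcript, with numbers of called probes above the bars, for probes brighter (left) and dimmer (right) than the median probe. Drops were 159 of the dim lincRNA probes but 2 of the bright mRNA probes.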

How the data were processed

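Each file held 1 array scanned and extracted with Agilent Feature Extraction (version 10.7.3.1, per the file headers), annotated on mm9. The values used were processed signal intensities deposited by the authors, already background-subtracted by that software. Spots flagged as outliers were dropped, probes were averaged and log2 values were centred on the 75th percentile of each array's non-control spots. Of 55681 probes, 29879 passed the filter. The test was limma (3.58.1, under R 4.3.3) fitted to all 8 arrays, with 1 mean per group, 5 residual degrees of freedom and Benjamini-Hochberg adjustment. On simulated data the fit called 71 of 90 probes changed by 1.5 (log2), 107 of 110 changed by 3 and 5 of 29677 unchanged. Arrays give no counts, so that their number limits the precision. All arrays shared 1 slide. Accessions were updated through RefSeq, which matched 14240 of 14372. A bound compared the bright group's mean with the higher of the dim probe's own signal and the lowest signal well above background.

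Genes were named by rule: the study's serum response genes, the 12 largest mRNA rises and 8 drops measured on all arrays, and up to 4 bounds in each direction. Up to 4 called members of each list, references, and the leading lincRNA and other-transcript probes were also named by rule. Further list members and genes said to be so chosen were named after their values were seen. List counts used each gene's brightest probe. The comparison, lists and rule were chosen with earlier results of these data known. Some genes are not reported here.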

Additional observations from a re-analysis of the deposited data

How the results depend on the processing

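The 260 rises and 272 drops became 173 and 60 with normexp background correction, 133 and 88 with no filter on dim probes, and 47 and 128 with spike-in centring, while 144 drops were left when probes had to be well above background on all 5 arrays and 557 at an unadjusted p. With the 5 arrays alone in the fit there were 217 rises and 188 drops, with 109 lincRNA drops in place of 165 and 7 mRNA drops in place of 12. Leaving out each array in turn gave 139 to 233 rises and 128 to 295 drops. The replicate block gave 256 rises and 302 drops, sharing 232 and 225 with the fit without it. Under this block the mRNA drops were 23 in place of 12. Same-numbered arrays deviated with correlations of -0.07 and 0.25. With only 2 no-serum arrays these values cannot decide whether the numbers pair the arrays. The cause of these shifts was not tested. Of 62 named probes called, 39 kept the call under spike-in centring, 51 under normexp and 53 with the 5 arrays alone in the fit. With an array left out 44 to 57 kept it, and 0 turned direction under any setting. Jun, Egr1, Dusp1, Dusp2, Ereg, F3, Id3 and Zc3h12a lost the call under spike-in centring alone. Sign turned only in probes that were not called. With spike-in centring these were Wdcp (-0.3), Myoz3 (-0.09), Elk1 (-0.23), Ccnd3 (0), Npm1 (-0.29), Ncl (-0.27), Scd2 (-0.33), Fdps and Asns (-0.26 each), Actb (-0.19), Rpl10a (-0.26) and Gapdh (-0.34), with quantile normalization Elk1 (-0.02), Scd2 and Rpl10a (-0.03 each) and Gapdh (-0.07), with normexp Scd2 (-0.02), with median centring Dcaf17 (0.08), Zfp867 (0.06), Phlda3 (0.01) and Cdk4 (0.09), with the replicate block Wdcp (-0.14) and Cdk4 (0.02), and with the slide row as a block Dcaf17 (0.02) and Wdcp (-0.03). With an array left out the ranges that crossed or reached 0 were -0.2 to 0.18 for Dcaf17, -0.06 to 0.15 for Wdcp, -0.12 to 0.08 for Zfp867, -0.25 to 0.08 for Phlda3, -0.13 to 0.13 for Cdk4, 0 to 0.22 for Elk1, 0 to 0.12 for Npm1, -0.02 to 0.06 for Scd2 and -0.03 to 0.04 for Gapdh. The Elk1, Ccnd3 and Fdps probes, like that of Gapdh, are placed on another chromosome than RefSeq gives the gene.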
